A study of Mus musculus with 10 samples.

Results

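The posterior end of the mouse *Hoxa* cluster was followed here through 6 genes: *Hoxa9*, *Hoxa10*, *Hoxa11*, *Hoxa11os*, *Hoxa13* and *Evx1*. They are represented by every non-control probe of the arrays whose listed transcript belongs to one of these genes, which gave 8 of 55681 probes and 6 of the 20972 genes named on the arrays. *Hoxa9* and *Hoxa13* had 2 probes each and the other 4 genes 1 each. E14 cells, a mouse embryonic stem (ES) cell line of 129/Ola origin, were grown with 1000 U/ml LIF, a cytokine that keeps them undifferentiated. The 10 arrays fall into 4 of cells given *Hottip* gRNAs, 3 given *Hoxa13* gRNAs and 3 controls, where each gRNA treatment was a mixture of 5 plasmids, each coding for a guide RNA (gRNA) that leads Cas9 to the promoter named. Both targeting pools were given with dCas9-VP160, a Cas9 without nuclease activity that carries repeats of the VP16 activation domain. The control is named a control gRNA in the labels, while the study's text describes non-targeting guides given with dCas9 that lacks VP160. Against it, an effect of VP160 and one of the guides cannot be told apart. All groups were selected with 2 µg/ml puromycin for 24 hrs and RNA was taken 48 hrs after transfection. Each array held RNA of a transient, selected culture described as a biological replicate.

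*Hox* genes encode homeodomain transcription factors that give cells their position along the body axis and the limb, and genes nearer the 5′ end of a cluster act in more posterior and distal parts. *Hoxa9*, *Hoxa10*, *Hoxa11* and *Hoxa13* are the 5′ genes of the *Hoxa* cluster, which is held silent by Polycomb complexes in ES cells. *Hoxa11os* is a non-coding RNA read from the strand opposite *Hoxa11*. *Hottip*, a long non-coding RNA, starts beyond *Hoxa13* and is transcribed away from it, and *Evx1*, an even-skipped homeobox gene, lies on the far side of *Hottip*. The results below run from *Hoxa13* back to *Hoxa9*, and *Evx1* comes last.

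The 2 guide pools define the groups, and the *Hoxa13* pool sits at a member gene, so the 2 of its 5 guides nearest the start of the gene and the outermost 2 of the *Hottip* pool are shown 5′ to 3′, with the guide in lower case from the study's guide list and the 3 bases that follow it in the genome, the PAM, in capitals from the RefSeq promoter windows of GRCm38.p6.
Hoxa13_Pro_sg4: cgggccgggggcgggccaatGGG
Hoxa13_Pro_sg5: cgggccaatgggcggccgccTGG
mHottip_pro_sg1: gcagtaagaaggtaaactcgGGG
mHottip_pro_sg4: ggatcagggaaggttttattGGG

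*Hoxa13* guides 4 and 5 matched chr6:52260901-52260931 (GRCm38.p6) on the minus strand, the strand of the gene, between 21 and 51 bases before its annotated start. They share 9 positions, and 85.0% of the bases of each are G or C. The 5 *Hottip* guides matched chr6:52262547-52262665, between 110 and 228 bases before the start of *Hottip*, over 119 bases and with 40.0% to 55.0% G or C. Guides 4 and 5 of that pool share 19 of their 20 positions. The starts of the 2 genes lie 1895 bases apart, and each of the 10 guides had 1 exact match with a PAM among 32851 promoter windows of 27025 genes (250 bases before to 50 after a start), which was the promoter it was designed for. No probe was matched to *Hottip*, so its level is not analysed here and the *Hottip* label could not be checked by its own target.

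A level below is the log2 of the processed signal minus the 75th percentile of that array, so that 0 is the brightness of the probe at the 75th percentile. Levels of different probes are not compared, since probes differ in how they respond. The scanner software marks a spot as well above background, and the weaker mark "positive and significant" is given where a spot differs from background at all. Of the 55681 probes, between 31.9% and 41.4% were well above background on an array. Trends across the array had been corrected on 8 of 10 arrays and not on *Hottip* gRNA replicates 3 and 4. Of the *Hoxa13* gRNA arrays, replicates 1 and 2 were on a slide of their own, and replicate 3 was on the slide of all other arrays. The slope of the spiked-in control RNAs was 1.16 for replicate 1 of the *Hoxa13* gRNAs and 0.900 to 0.982 for the other arrays. The 10 ES cell markers, which include the pluripotency factors *Pou5f1*, *Nanog* and *Sox2*, were well above background on every array. None of the 10 was called in any comparison. Their median difference from the control was 0.22 after *Hottip* gRNAs, with 0 of 10 at an unadjusted limma p under 0.05, and 0.86 after *Hoxa13* gRNAs, with 4 of 10, among them *Nanog* at 1.74 (SE 0.43) and *Pou5f1* at 1.18 (SE 0.49). It was -0.78 between the *Hottip* and *Hoxa13* gRNAs, with 2 of 10. Over all tested probes the medians of these 3 comparisons were -0.03, 0.19 and -0.26. Such a p was found for 2206 of 22835, 3227 of 22835 and 3486 of 22830 tested probes.

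After *Hottip* gRNAs, *Hoxa13*, *Hoxa11os* and *Hoxa10* rose from signals not well above background to signals that were. Against the control, 5 member probes passed the filter, which asked that at least 3 of the 10 arrays showed a probe well above background. Of these, 4 were called higher at a limma adjusted p under 0.05 and none lower, where 0.53% of 22835 tested probes were called higher and 0.399% lower. The groups did not overlap, with the *Hottip* gRNA arrays higher, at 6 of the 8 probes, against 5.95% of tested probes. Over the 8 probes the median log2 difference was 2.69, and over all tested probes it was -0.03. Since a probe could pass the filter through the *Hottip* gRNA arrays alone, the counts over tested members are given as a description.

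**Figure D1:**
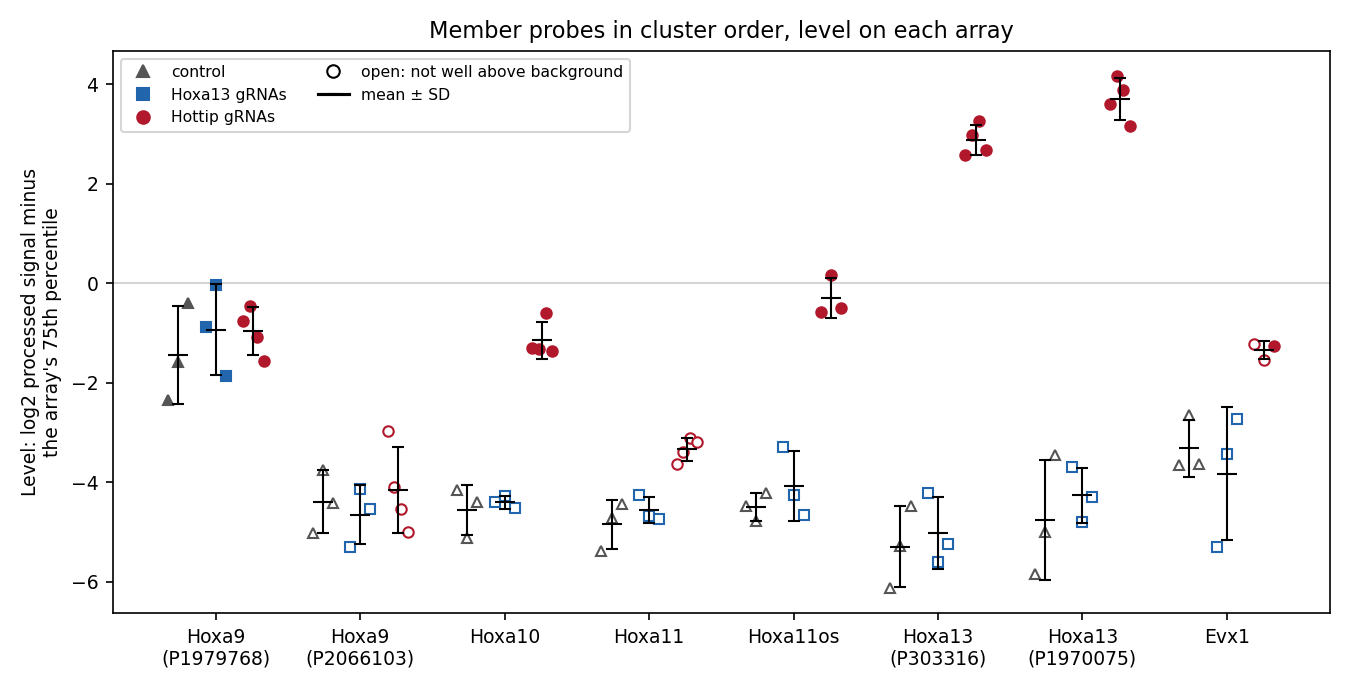
Level of each member probe on each array (y axis: log2 processed signal minus the 75th percentile of the array), with the probes in cluster order on the x axis; points are arrays, open where the probe was not well above background, and bars are the mean ± SD of a group. Both *Hoxa13* probes lie between 2.58 and 4.16 on the 4 *Hottip* gRNA arrays and at -3.46 or lower on all others.

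*Hoxa13* is the last gene of the cluster and acts in the digits and the genital and hindgut ends of the body. Its probe A_51_P303316 had levels of 2.58, 2.98, 3.27 and 2.69 on *Hottip* gRNA replicates 1 to 4, -4.21, -5.60 and -5.24 on *Hoxa13* gRNA replicates 1 to 3, and -6.12, -5.29 and -4.48 on control replicates 1 to 3. All 4 *Hottip* gRNA arrays are high, and the other 2 groups overlap each other at a signal that no array showed well above background. Its difference from the control was 8.17 (SE 0.45, limma adjusted p = 0.000115), and with the control raised to a floor it was at least 96.9-fold higher. For this bound, each array of the dim group was raised, where lower, to the dimmest signal marked well above background on that array. The mean of the bright group was set against the result, and the same holds for the bounds below. The floor is not a detection limit, since brighter probes can lack the mark. The second *Hoxa13* probe did so on control replicate 3, at -3.46 with a floor of -4.08. "At least" therefore refers to this floor alone.

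The second *Hoxa13* probe, A_55_P1970075, had levels of 3.60, 4.16, 3.88 and 3.17 after *Hottip* gRNAs. After *Hoxa13* gRNAs it had -3.68, -4.80 and -4.31, and in the control -5.84, -5.0 and -3.46. Again only the *Hottip* gRNA arrays were well above background, with a log2 gap of 6.62 between their lowest value and the highest control value. The difference was 8.47 (SE 0.53, limma adjusted p = 0.000117), at least 148-fold. The 2 probes changed by amounts that differed by 0.29, within the spread between arrays (two-sided exact permutation p = 0.343, 4 against 3 arrays). As plain spot brightness, the median signal of the second probe was 10235 to 23527 units after *Hottip* gRNAs and 67 to 105 in the control, where the local background was 17 to 20. No member spot was saturated.

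*Hoxa11os* had levels of -0.57, 0.17 and -0.50 on *Hottip* gRNA replicates 2, 3 and 4. The spot of replicate 1 was marked as an outlier and left out, and with it the level of that array would be -0.29. In the control the levels were -4.48, -4.79 and -4.22. *Hottip* gRNA arrays are high without overlap, and the probe was well above background on all 4 of them and on no other array. The difference was 4.20 (SE 0.41, limma adjusted p = 0.00203) over 3 arrays of each group, at least 10.7-fold. With both arrays that were not trend-corrected left out, also chosen after seeing the data, the difference was 3.92. It then rested on replicate 2 alone for the *Hottip* gRNAs. The median level of spots around the probe differed between the groups by -0.04.

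*Hoxa11*, a regulator of the forearm and the uterus, lies under *Hoxa11os* on the other strand. Its single probe was printed 10 times on each array. The mean level over the spots kept was -3.63, -3.39, -3.11 and -3.20 after *Hottip* gRNAs and -5.39, -4.71 and -4.43 in the control. The *Hottip* gRNA arrays were higher without overlap, by 1.51 (SE 0.35, limma unadjusted p = 0.00134), and the two-sided exact permutation p for 4 against 3 arrays was 0.0286, the smallest that 35 splits can give. With quantile normalization or median centring of the processed signal, the exact permutation p was 0.0571. Single spots were well above background in 7 of 40 cases after *Hottip* gRNAs and in 3 of 30 in the control, but on no array in as many spots as not, which a probe needed to count, so *Hoxa11* was outside the filter, has no adjusted p and is given no fold. By the weaker mark, 38 of 40 spots were positive and significant after *Hottip* gRNAs, against 6 of 30 in the control and 9 of 30 after *Hoxa13* gRNAs. The spots around it were brighter by 0.49 on the *Hottip* gRNA arrays than on the control arrays. With the median of the surrounding 11 by 11 spots subtracted everywhere, an alternative chosen after seeing the data, the difference was 1.44. The files do not hold the probe sequences, so where in the overlapping transcripts the *Hoxa11* and *Hoxa11os* probes lie was not examined.

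*Hoxa10*, which acts in the lower spine, the limb and the uterus, had levels of -1.31, -1.32, -0.60 and -1.37 after *Hottip* gRNAs. The control levels were -4.15, -5.13 and -4.40. Replicate 3 was the highest of the 4, and all 4 were well above background and above every other array. The difference was 3.41 (SE 0.32, limma adjusted p = 0.000836), at least 5.94-fold. In the log2 values deposited by the authors it was 2.53 with a limma adjusted p of 0.0547.

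*Hoxa9*, a gene also used by blood progenitors, gave 2 probes. The first, A_55_P1979768, stood well above background on each of the 10 arrays, with levels of -0.75, -0.45, -1.09 and -1.56 after *Hottip* gRNAs and of -2.35, -1.58 and -0.40 in the control. The groups overlap, and the difference was 0.48 (SE 0.54, 95% CI -0.72 to 1.69, limma adjusted p = 0.910). The second, A_55_P2066103, was on no array well above background and differed by 0.24 (SE 0.53), with a two-sided exact permutation p of 0.686 for 4 against 3 arrays. These arrays cannot tell a change of a size within the interval of the first probe from no change.

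*Evx1*, which marks the primitive streak and posterior embryo, lies beyond *Hottip* and outside the *Hoxa* genes. Its probe had levels of -1.22, -1.55 and -1.27 on *Hottip* gRNA replicates 1 to 3, with the spot of replicate 4 left out as an outlier (its level would be -0.37), and of -3.66, -2.66 and -3.63 in the control. The *Hottip* gRNA arrays are higher without overlap, by 1.97 (SE 0.62, limma unadjusted p = 0.0104), and the two-sided exact permutation p of 0.1 is the smallest that 3 against 3 arrays allow. Of the *Hottip* gRNA arrays, replicates 3 and 4 showed the spot well above background and no other array did, so the probe was outside the filter. The spots around it were themselves brighter by 1.05 on the same *Hottip* gRNA arrays. With the local median subtracted as for *Hoxa11*, the difference was 0.92.

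**Figure D2:**
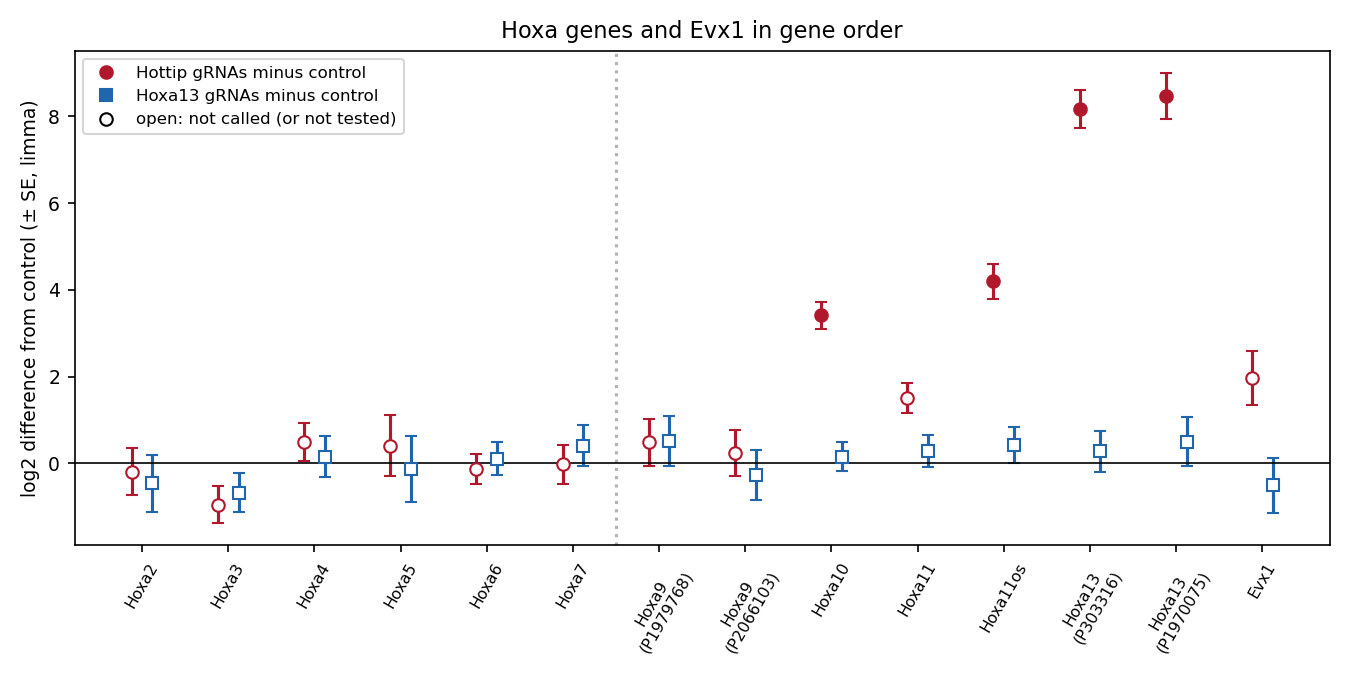
log2 difference from the control with its standard error (y axis, limma) for *Hoxa2* to *Hoxa7* (1 probe a gene, left of the dotted line) and for each member probe in gene order (x axis); filled points were called at an adjusted p under 0.05 and open points were not called or not tested. After *Hottip* gRNAs the differences reach 8.47 at *Hoxa13*, with smaller ones at *Hoxa11os*, *Hoxa10*, *Hoxa11* and *Evx1*, and lie between -0.95 and 0.50 from *Hoxa2* to *Hoxa7*.

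In size, the differences after *Hottip* gRNAs ran from *Hoxa13* through *Hoxa11os*, *Hoxa10*, *Evx1* and *Hoxa11* to *Hoxa9*. The step from *Hoxa13* to *Hoxa11os* was 4.08 per array, and *Hoxa11os* changed by 0.73 more than *Hoxa10*, which changed by 1.51 more than *Evx1*. Each of these steps had a two-sided exact permutation p of 0.1, the smallest for 3 against 3 arrays. The probes were sorted by these same differences, which sets the direction of each step. The exact p-values of the steps are therefore a description and not a test of the order. *Evx1* and *Hoxa11* (exact permutation p = 0.4), *Hoxa11* and the first *Hoxa9* probe (exact p = 0.0857) and the 2 *Hoxa9* probes (exact p = 0.657) did not differ beyond the spread between arrays. In signal, *Hoxa11* changed by less than *Hoxa10*, which lies farther from *Hottip*. Signals near background understate a change, so this is an order of signals and not of transcripts. Of the 7 steps, 4 kept their direction with the local median subtracted, and 6 or 7 under the other alternatives.

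The 6 genes *Hoxa2* to *Hoxa7* each had a probe and gave the setting of the members. *Hoxa7*, the 1 gene of these that passed the filter, was not called in limma after *Hottip* gRNAs, 1 of 6 had an unadjusted p under 0.05, against 9.66% of tested probes, and the median difference was -0.07. The highest was *Hoxa4* at 0.50 (SE 0.43) and the lowest *Hoxa3* at -0.95 (SE 0.42), and the scanner marked neither as well above background after *Hottip* gRNAs. After *Hoxa13* gRNAs none was called in limma and 0 of 6 had an unadjusted p under 0.05, with *Hoxa7* highest at 0.41 (SE 0.48) and *Hoxa3* lowest at -0.67 (SE 0.45).

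The paralogues on other chromosomes, *Hoxb*, *Hoxc* and *Hoxd* genes of the same groups and *Evx2*, numbered 13, of which 5 passed the filter. None was called against the control after either pool in limma, while 5 of 13 had an unadjusted p under 0.05 after *Hottip* gRNAs, against 9.66% of tested probes, and 2 of 13 after *Hoxa13* gRNAs, against 14.1%. *Hoxb9*, the paralogue of *Hoxa9*, had the highest difference after *Hottip* gRNAs, 2.15 (SE 0.68, limma adjusted p = 0.305), and 0.88 (SE 0.61) after *Hoxa13* gRNAs. *Hoxd9* had the lowest after both, -1.67 (SE 0.66) and -2.19 (SE 0.71), and its signal was marked well above background on 1 control array and no other. *Hoxb13*, named after its values were seen as the single paralogue called in any comparison, was 3.21 higher (SE 0.41, limma adjusted p = 0.0172) after *Hottip* gRNAs than after *Hoxa13* gRNAs and 2.07 higher than in the control (adjusted p = 0.0644).

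Of 11 listed genes that flank the cluster or are non-coding RNAs within or beside it, 6 had a probe and 4 passed the filter. None was called in either comparison with the control. After *Hottip* gRNAs, *Jazf1*, a zinc finger gene, had the highest difference, 0.45 (SE 0.37), and *Evx1os*, read from the strand opposite *Evx1*, had 0.45 (SE 0.46), both at signals near background. *Hibadh*, a valine-breakdown enzyme gene that lies beyond *Evx1*, had the lowest, -2.41 (SE 0.95, limma adjusted p = 0.439). After *Hoxa13* gRNAs the values ran from -0.06 (SE 0.32) at *Skap2*, a signalling adaptor gene, to 0.81 (SE 0.95) at *Hibadh*.

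Whether the pool aimed at *Hoxa13* changed its own target was read from the *Hoxa13* probes on the 3 arrays labelled *Hoxa13* gRNAs. On the scale used above they overlapped the control: the differences were 0.28 (SE 0.48, 95% CI -0.79 to 1.35, limma adjusted p = 0.790) and 0.50 (SE 0.57, 95% CI -0.76 to 1.77, adjusted p = 0.678). Neither probe was well above background on any of these arrays. By the weaker mark, the 2 probes were positive and significant on 1 and 2 of the 3 *Hoxa13* gRNA arrays and on 0 of 3 control arrays. In level, the label is not borne out by its target on this scale, and directions below rest on the label. None of the 5 tested member probes was called in limma, against 0.136% of 22835 tested probes, and none of the 8 had an unadjusted p under 0.05, against 14.1%. At no member probe were the groups without overlap, against 23.9% of tested probes in either direction. Of the members, only the first *Hoxa9* probe was well above background on any array of these 2 groups. The other tested member probes passed the filter through the *Hottip* gRNA arrays alone, so these counts are given as a description.

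The other members also overlapped the control. *Hoxa10* had levels of -4.41, -4.27 and -4.53 after *Hoxa13* gRNAs and differed from the control by 0.16 (SE 0.34, 95% CI -0.59 to 0.91). *Hoxa11os* had -3.29, -4.26 and -4.65 and differed by 0.43 (SE 0.41), and *Hoxa11* by 0.29 (SE 0.38). The bright *Hoxa9* probe had -0.88, -0.04 and -1.87, a difference of 0.51 (SE 0.58), while the spots around it were brighter by 1.24, and the difference was -0.72 with the local median subtracted. *Evx1* had -5.30, -3.44 and -2.73, the widest spread of any member in any group (SD 1.33). Over the 8 probes, the two-sided exact permutation p for 3 against 3 arrays lay between 0.5 and 0.9, where 0.1 is the smallest the design can reach. The median difference was 0.28, and over all tested probes it was 0.19. On the slide that held all 3 groups, with replicate 3 as its only *Hoxa13* gRNA array, the differences of the *Hoxa13* probes were 0.06 and 0.46, that of *Hoxa11os* was -0.16 and that of *Evx1* was 0.58. Slide as a block in the fit of all arrays gave these same values, since a slide with 1 group adds nothing to the comparison.

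The picture at *Hoxa13* changed with how dim spots were processed. In the authors' log2 values, the first *Hoxa13* probe was 6.73, 6.59 and 6.64 after *Hoxa13* gRNAs and 5.95, 6.18 and 6.02 in the control, and the second was 7.03, 7.16 and 6.39 against 5.88, 5.41 and 5.70. Both were higher on all 3 *Hoxa13* gRNA arrays than on any control array, by 0.61 and 1.20, each with a two-sided exact permutation p of 0.1, the smallest for 3 against 3. *Hoxa11os* was apart in the same way, by 0.79, with 7.53, 6.93 and 6.86 against 6.39, 6.10 and 6.46. On that scale 4.12% of the 22844 probes that passed the filter were apart with *Hoxa13* gRNAs higher, and no member was called in limma. The same *Hoxa13* probes were apart with normexp background correction, by 0.77 and 1.09 after scaling to the 75th percentile (10.4% of probes apart and higher) and by 0.36 and 0.70 after quantile normalization (6.81%). These 3 settings start from the median spot signal and the local background, whereas the processed signal carries the scanner software's own correction. Quantile normalization or median centring of the processed signal left all 8 probes overlapping. With control replicate 1 left out on the main scale, both differences were below 0, at -0.13 and -0.04.

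**Figure D3:**
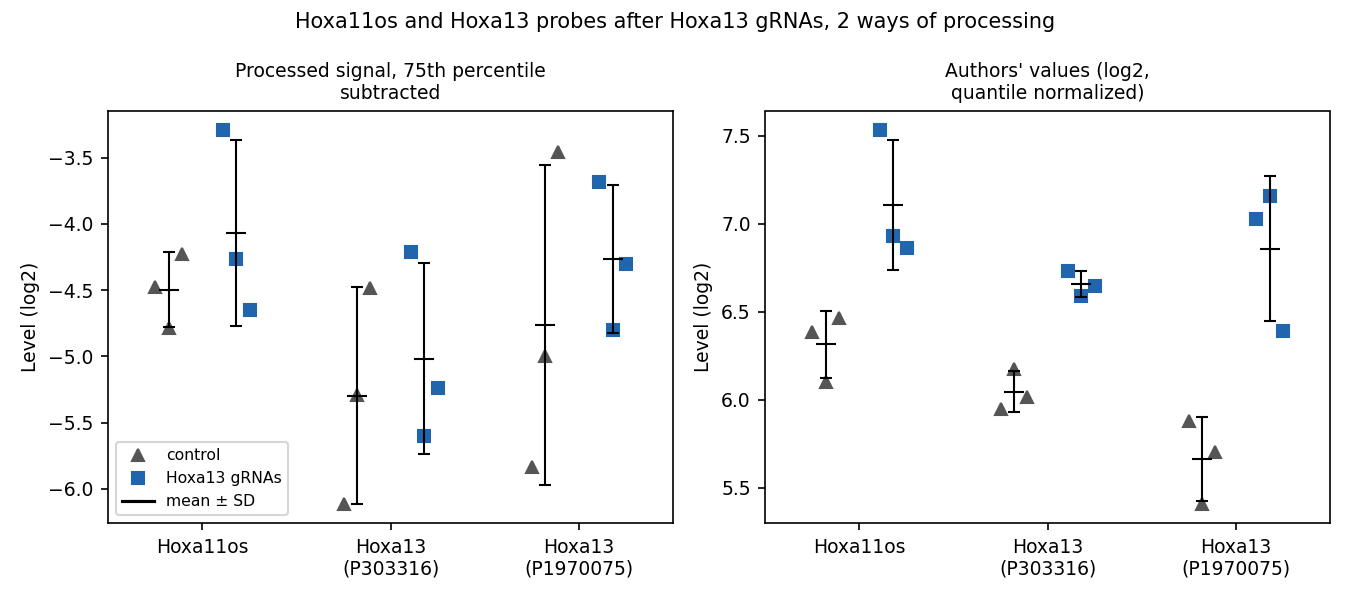
Levels of the *Hoxa11os* probe and the 2 *Hoxa13* probes on the 3 *Hoxa13* gRNA and 3 control arrays, from the processed signal (left, log2 minus the 75th percentile of the array) and in the authors' log2 values (right); points are arrays and bars the mean ± SD. The groups overlap on the left and are apart on the right at all 3 probes.

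Set against each other, the 2 pools differed at *Hoxa13*, *Hoxa11os* and *Hoxa10*. Both *Hoxa13* probes and those of the other 2 genes were called higher after *Hottip* gRNAs than after *Hoxa13* gRNAs. Of 22830 tested probes, 0.425% were called higher. At 6 of 8 member probes the *Hottip* gRNA arrays were higher without overlap, against 4.98% of tested probes. The called member probes passed the filter through the *Hottip* gRNA arrays alone, so these counts too are given as a description. The *Hoxa13* probes differed by 7.89 (SE 0.45, limma adjusted p = 8.95e-05) and 7.96 (SE 0.53, adjusted p = 0.000194), at least 131-fold and 201-fold. *Hoxa11os* differed by 3.77 (SE 0.41, limma adjusted p = 0.00667), at least 13.1-fold. Without *Hottip* gRNA replicates 3 and 4, replicate 2 alone kept a *Hoxa11os* value for that pool, and the difference was 3.50. *Hoxa10* differed by 3.25 (SE 0.32, limma adjusted p = 0.00249), at least 7.06-fold. *Hoxa11* and *Evx1*, which have no adjusted p, differed by 1.22 (SE 0.35) and 2.48 (SE 0.62), and within the shared slide by 1.40 and 1.39. Over the alternative settings *Hoxa11* ranged from 0.69 to 1.51 and *Evx1* from 1.27 to 3.02. The spots around *Evx1* were brighter by 1.21 after *Hottip* gRNAs than after *Hoxa13* gRNAs. At *Evx1* the 2 pools overlapped in the authors' values and with normexp and quantile normalization. The bright *Hoxa9* probe differed by -0.03 (95% CI -1.24 to 1.18, limma adjusted p = 0.981). The dim *Hoxa9* probe, well above background on no array, differed by 0.50 (SE 0.53), and the pools overlapped. It was apart, with *Hottip* gRNAs higher, by 1.07 in the authors' values and by 0.67 with normexp and quantile normalization. In both settings the two-sided exact permutation p was 0.0286. The comparison of the 2 pools shares its *Hottip* gRNA arrays with the first comparison. The 2 comparisons with the control likewise share the control arrays. Both groups compared here carried VP160.

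Among 14628 tested probes with a value on all 10 arrays, those of other genes whose levels were most alike to the second *Hoxa13* probe were *Igf2*, a fetal growth factor (Pearson r 0.987), *Igf2os* from its opposite strand (0.987), *Ak4*, a mitochondrial adenylate kinase (0.986), *Atoh1*, a neural and gut transcription factor (0.981), and *Npy*, a neuropeptide (0.978). For *Hoxa10* they were *Ccm2l* (0.983), *Septin4* (0.980), *Ak4* (0.979), *Myl1* (0.978) and *Bhmt* (0.977). These correlations mostly restate the contrast of the 4 *Hottip* gRNA arrays with the other 6, and arrays of 1 group share their treatment. Each of these genes was higher after *Hottip* gRNAs, between *Ak4* at 1.86 and *Igf2* at 6.37.

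**Figure D4:**
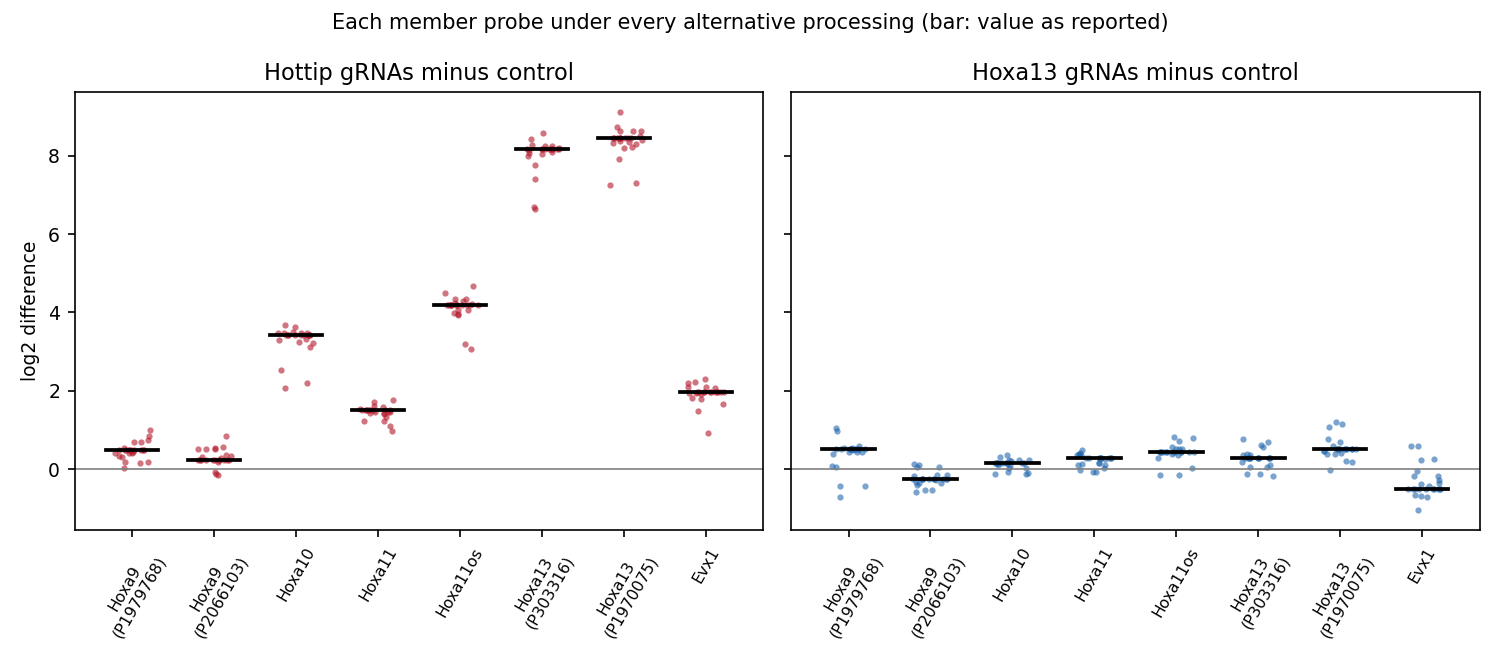
log2 difference of each member probe (x axis, cluster order) from the control after *Hottip* gRNAs (left) and *Hoxa13* gRNAs (right); each point is 1 of up to 26 alternative settings and the bar is the value reported above. On the left, both *Hoxa13* probes stay between 6.63 and 9.12 and *Hoxa10* between 2.08 and 3.67, and on the right the values of every probe lie on both sides of 0.

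Markers of other cell types were read beside these results, and the markers named here were chosen after their values were seen. Of 6 trophoblast markers, 5 were well above background on each *Hottip* gRNA array, 4 or 5 on the *Hoxa13* gRNA arrays and 3 or 4 on the control arrays, with summed levels of 3.48 to 5.20, 3.45 to 4.90 and 3.00 to 3.43. *Cdx2*, a transcription factor of the trophoblast and also of the caudal embryo, moved with the members. Every *Hottip* gRNA array showed it well above background and no control array did, and it was higher by 4.06 than in the control (SE 0.35, limma adjusted p = 0.000684) and by 3.31 than after *Hoxa13* gRNAs (SE 0.35, adjusted p = 0.00388). *Tfap2c*, another trophoblast factor, differed by 3.28 from the control after *Hottip* gRNAs (SE 0.74, limma adjusted p = 0.105).

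Of 6 endoderm markers, 2 to 5, 3 or 4, and 2 to 4 were well above background, with summed levels of 2.28 to 3.13 after *Hottip* gRNAs, 1.25 to 1.47 after *Hoxa13* gRNAs and 1.44 to 1.65 in the control. Among them the endoderm factor *Gata6* was called higher after *Hottip* gRNAs, by 1.66 against the control (SE 0.32, limma adjusted p = 0.0491) and by 1.84 against *Hoxa13* gRNAs (SE 0.32, adjusted p = 0.0404). Of 6 early mesoderm markers, 1 or 2 were well above background after *Hottip* gRNAs and 1 elsewhere, with summed levels of 0.46 to 1.13, 0.07 to 0.72 and -0.33 to 0.24 in the same order of groups. None was called, and the highest difference after *Hottip* gRNAs was that of brachyury (*T*), 1.31 (SE 0.42). Of 8 fibroblast or limb mesenchyme markers, 1 to 5, 3 to 6 and 4 were well above background, with summed levels of 0.75 to 2.99, 0.87 to 1.57 and 0.78 to 2.50, and none was called. Of 5 neural markers, 3, 3, and 2 or 3 were well above background, with summed levels of 1.25 to 3.12, 2.37 to 3.24 and 1.61 to 3.82. None was called, and *Sox1*, a neural precursor factor, had the lowest difference after *Hottip* gRNAs, -1.76 (SE 0.38, limma adjusted p = 0.0779). The other neural markers went both ways in that comparison, with *Pax6* at -0.69, *Nes* at -0.20, and *Neurog2* and *Tubb3* each at 0.67. The part of these cells or genes in the members' differences was not tested. In these bulk cultures, more cells with a transcript and more RNA per cell cannot be told apart.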

How the data were processed

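Total RNA of 10 cultures was measured on 1-colour Agilent arrays. The authors deposited the output of the scanner software (Feature Extraction 11.5.1.1), in which the processed signal is an intensity after background subtraction, corrected for trends across the array on 8 of 10 arrays, beside the median spot intensity. They also deposited a matrix of log2 values, quantile normalized as judged from its columns, whose ranks follow the median signal minus local background. The submitters' processing notes name limma.

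Groups came from the sample labels. Each level is log2 of the processed signal minus the 75th percentile of its array over 59305 non-control spots. Spots marked as outliers were left out, and spots of 1 probe were averaged. Probes were named through their transcript accessions (RefSeq, GRCm38.p6), and 27656 of 55681 had a symbol. The 3 groups were fitted together in limma 3.58.1 (R 4.3.3), with Benjamini-Hochberg adjustment over those probes that at least 3 arrays showed well above background. Members outside this filter received exact permutation tests over arrays (two-sided) and the unadjusted limma p. A dim group was replaced by a bound as described with the first value. The code was tested on simulated data.

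The member genes, gene lists, tests and naming rule were chosen with earlier results of these data known. The rule named all members, the highest and lowest gene of the lists of other *Hoxa* genes, paralogues and flanking genes, and the 5 genes most alike to *Hoxa13* and to *Hoxa10*. Alternatives were quantile normalization, median centring, normexp (offset 50) on the median signal since the files hold no mean, the authors' values, other filters, outlier spots kept, an intensity trend, the 2 groups alone, slide, slide row or replicate as blocks, and each array left out. The number of arrays limits the precision. Guides were matched exactly, on both strands, to RefSeq promoter windows. No probe was matched to *Hottip*, which is not analysed here, and some guides and a gene of the lists are not reported here.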

Additional observations from a re-analysis of the deposited data

Results flagged for a closer look

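Among the 6 groups of 4 values, the *Hottip* gRNA arrays of each member probe with a value on all 4, *Hoxa10* had 1 array far from the others. Replicate 3 was at -0.60 and the other 3 lay between -1.37 and -1.31, so that its gap to the nearest made up 0.916 of the whole range and passed Dixon's 95% critical value for 4 samples. Chance alone marks about 1 in 20 such groups. Replicate 3 was 1 of the 2 arrays without trend correction, and the part of this in its value was not tested. Without replicates 3 and 4 the *Hoxa10* difference from the control was 3.25, with a limma adjusted p of 0.0193.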

How the results depend on the processing

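Over 26 alternatives, 2 of them (*Hottip* gRNA replicates 3 and 4 left out, local median subtracted) chosen after seeing the data, both *Hoxa13* probes stayed called wherever they passed the filter, with differences from the control of 6.63 to 8.58 and 7.26 to 9.12 after *Hottip* gRNAs. *Hoxa11os* ranged from 3.06 to 4.69 and *Hoxa10* from 2.08 to 3.67. *Hoxa11* and *Evx1*, both outside the filter, ranged from 0.98 to 1.77 and from 0.92 to 2.30. Asking for all 10 arrays well above background kept only the first *Hoxa9* probe of the members, so 0 member probes were called in either comparison of *Hottip* gRNAs. With each array left out in turn, 4 member probes, 2 of them of *Hoxa13*, stayed called in both of these, and 0 for *Hoxa13* gRNAs against the control. With the replicate number as a block, 3 member probes were called against the control, and *Hoxa11os* was not (4.49, limma adjusted p = 0.0590). Against *Hoxa13* gRNAs only the 2 *Hoxa13* probes were called. There *Hoxa10* was at 3.32 (limma adjusted p = 0.0679), *Hoxa11os* at 4.06 (adjusted p = 0.0985) and the bright *Hoxa9* probe at 0.17. Deviations from the group mean correlated from -0.233 to 0.141 over 9 pairs of same-numbered arrays and from -0.316 to 0.279 over 24 other pairs. With so few arrays in a group, these values cannot tell whether the numbers pair the samples. The order of the changes held at 4 of 7 steps with the local median subtracted.

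For *Hoxa13* gRNAs against the control, 3 probes were without overlap with normexp and the 75th percentile, with normexp and quantile normalization, and in the authors' values, and 0 to 1 with each array left out, the 1 without control replicate 3. Values whose sign turned were all uncalled. In that comparison *Hoxa9* (first probe) was -0.42 with slide as a block or on the shared slide alone and -0.72 with the local median subtracted, and *Hoxa11os* was -0.16 in both slide settings. *Hoxa10* was -0.080 with normexp and quantile normalization, -0.13 in the authors' values, -0.093 with the local median subtracted, and -0.12 to 0.36 with arrays left out. The *Hoxa13* probes ranged from -0.13 to 0.69 and from -0.035 to 1.15 with arrays left out, and the first was -0.17 with the local median subtracted. Between the pools, the first *Hoxa9* probe (-0.03) was 0.15 with median centring, 0.90 in both slide settings, 0.032 with slide row as a block, 0.33 without replicates 3 and 4, 0.87 with the local median subtracted, and -0.50 to 0.41 with arrays left out. The causes were not tested.

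The count of all probes called ranged from 29 to 226 (212 as reported), 1 to 86 (31) and 11 to 260 (143) in the 3 comparisons, with 29, 2 and 11 under the replicate block. Signal near background limits *Hoxa11*, *Evx1*, the second *Hoxa9* probe and every member in the *Hoxa13* gRNA and control arrays apart from the bright *Hoxa9* probe.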
